A study of Homo sapiens with 12 samples.

Results

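The genes that copy DNA and supply its building blocks were followed in the lymphoma line OCI-Ly7, grown from a diffuse large B-cell lymphoma, after exposure to Btk inhibitors. The set holds 49 of the 19775 genes that have a probe set annotated to them alone, and each gene is represented by its brightest probe set, the one with the highest mean over 12 arrays. By function they are 16 licensing and origin genes, 5 CDC45 and GINS genes, 9 polymerase and primase genes, 10 genes of the clamp, its loader, RPA and Okazaki fragments, 4 nucleotide synthesis genes, 3 E2F genes and 2 chromatin assembly genes. All 49 genes were measured, and none was dim, meaning below the median mean log2 intensity of all probe sets, 3.87. Their mean log2 intensities ran from 4.98 (PRIM2) to 12.24 (TYMS).

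The cells were exposed for 24 h to PLS-123 at 1 μM, ibrutinib at 10 μM, ibrutinib at 1 μM or vehicle, with 3 arrays for each of the 4 groups and no genetic change in any of them. Both compounds are covalent inhibitors of Btk, a kinase below the B-cell receptor. All samples come from 1 cell line, so the spread between arrays says nothing of other lymphomas. Separate cultures are not named in the labels, and p-values measure only the spread between these samples, which may be technical. Fewer cells in S phase and less transcript in each cell cannot be told apart in such bulk RNA.

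A replication origin is licensed in G1, when the origin recognition complex (ORC) with CDC6 and CDT1 loads the ring-shaped MCM helicase. Entry into S phase adds CDC45 and the GINS complex to the ring, which opens the DNA for primase and the replicative polymerases, held on their template by the PCNA clamp. E2F transcription factors, freed from the retinoblastoma protein late in G1, switch many of these genes on, along with those for making deoxynucleotides. Proliferating germinal centre B cells and the lymphomas that arise from them use this machinery heavily.

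The arrays had median intensities of 14.2 to 14.8, and the number of arrays limits the precision (the standard error of a log2 difference was 0.07 to 0.17 over the members). All 6 B-cell markers measured were above the dim limit, and PLS-123 lowered 4 of them and raised 2, while 6 of 7 T and NK cell markers, 4 of 6 myeloid markers and 3 of 6 stromal and epithelial markers were dim. Of the 4 germinal centre markers measured, LMO2 was dim, and 2 were lower and 1 higher with PLS-123 and likewise with 10 μM ibrutinib than with vehicle. By the same test, 19.8% of the genes that were not dim were lower and 11.2% higher with PLS-123. With 10 μM ibrutinib these shares were 9.03% and 10.4%. The log2 difference between the 3′ and 5′ control probe sets of ACTB, which grows as RNA is shortened, averaged 2.93 ± 0.20 with PLS-123, 2.74 ± 0.08 at 10 μM ibrutinib, 2.67 ± 0.18 at 1 μM ibrutinib and 2.64 ± 0.04 with vehicle (SD, n = 3 arrays).

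With PLS-123 the replication genes moved little, and those that passed the test were lower. They included the transcription factors E2F1 and E2F2, the ORC subunits ORC3 and ORC5, the helicase partners CDC45 and GINS3, thymidine kinase and both specific subunits of the CAF-1 histone chaperone. By their brightest probe sets, the 6 core helicase genes MCM2 to MCM7 and both ribonucleotide reductase genes did not pass. Nor did the clamp and the catalytic polymerase subunits POLA1, POLD1 and POLE. Other probe sets of MCM4, MCM5 and RRM1 passed as lower and another of RRM2 as higher, as given below. By limma, with p-values adjusted by the Benjamini-Hochberg method over 54613 probe sets, 12 of 49 members (24.5%) were lower than vehicle at an adjusted p under 0.05. The background in that direction was 10.4% of all probe sets, and 19.8% of the brightest probe sets of the 12040 genes that were not dim. The members' share was above the first value and close to the second. No member was higher (background 6.36%, and 11.2% of the genes that were not dim). The methods' t-test called 1 higher, limma on the 2 groups alone 0 and limma with an intensity trend 3. At an unadjusted p under 0.05, limma gave 3 members higher, and no background was computed at that threshold. The median log2 fold change was -0.05 over the members, against -0.06 over the genes that were not dim.

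The changes were small. The largest was 0.619-fold (E2F2), the only member to change by more than 1.5-fold, while 9.71% of the genes that were not dim changed by that much. The median absolute log2 fold change was 0.11 over the members and 0.20 over those genes. At 1 μM ibrutinib, where no probe set was called, these medians were 0.04 and 0.07. The part of signal brightness in this gap was not tested. With PLS-123 the 95% confidence interval lay within 1.5-fold in both directions for 43 of 49 members. The others were E2F1, E2F2, GINS3, TK1, CHAF1A and PRIM2. The number of calls rested on single arrays, with 6 members lower without PLS-123 array C and 7 without vehicle array B. PLS-123 array C had an ACTB difference of 3.17, against 2.83 and 2.80 in arrays A and B. Vehicle arrays had 2.59 to 2.68, without overlap, so treatment and RNA quality cannot be cleanly told apart by a covariate. With the ACTB difference as a covariate, only E2F2 (adjusted p = 0.00905) and GINS3 (adjusted p = 0.0448) passed as lower. The log2 fold changes of all 12 stayed below 0 in that fit, between -0.56 (E2F2) and -0.20 (LIG1), with ORC5 at -0.34 (adjusted p = 0.0584), CHAF1A at -0.38 (adjusted p = 0.0521) and POLE2 at -0.29 (adjusted p = 0.221).

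**Figure D1:**
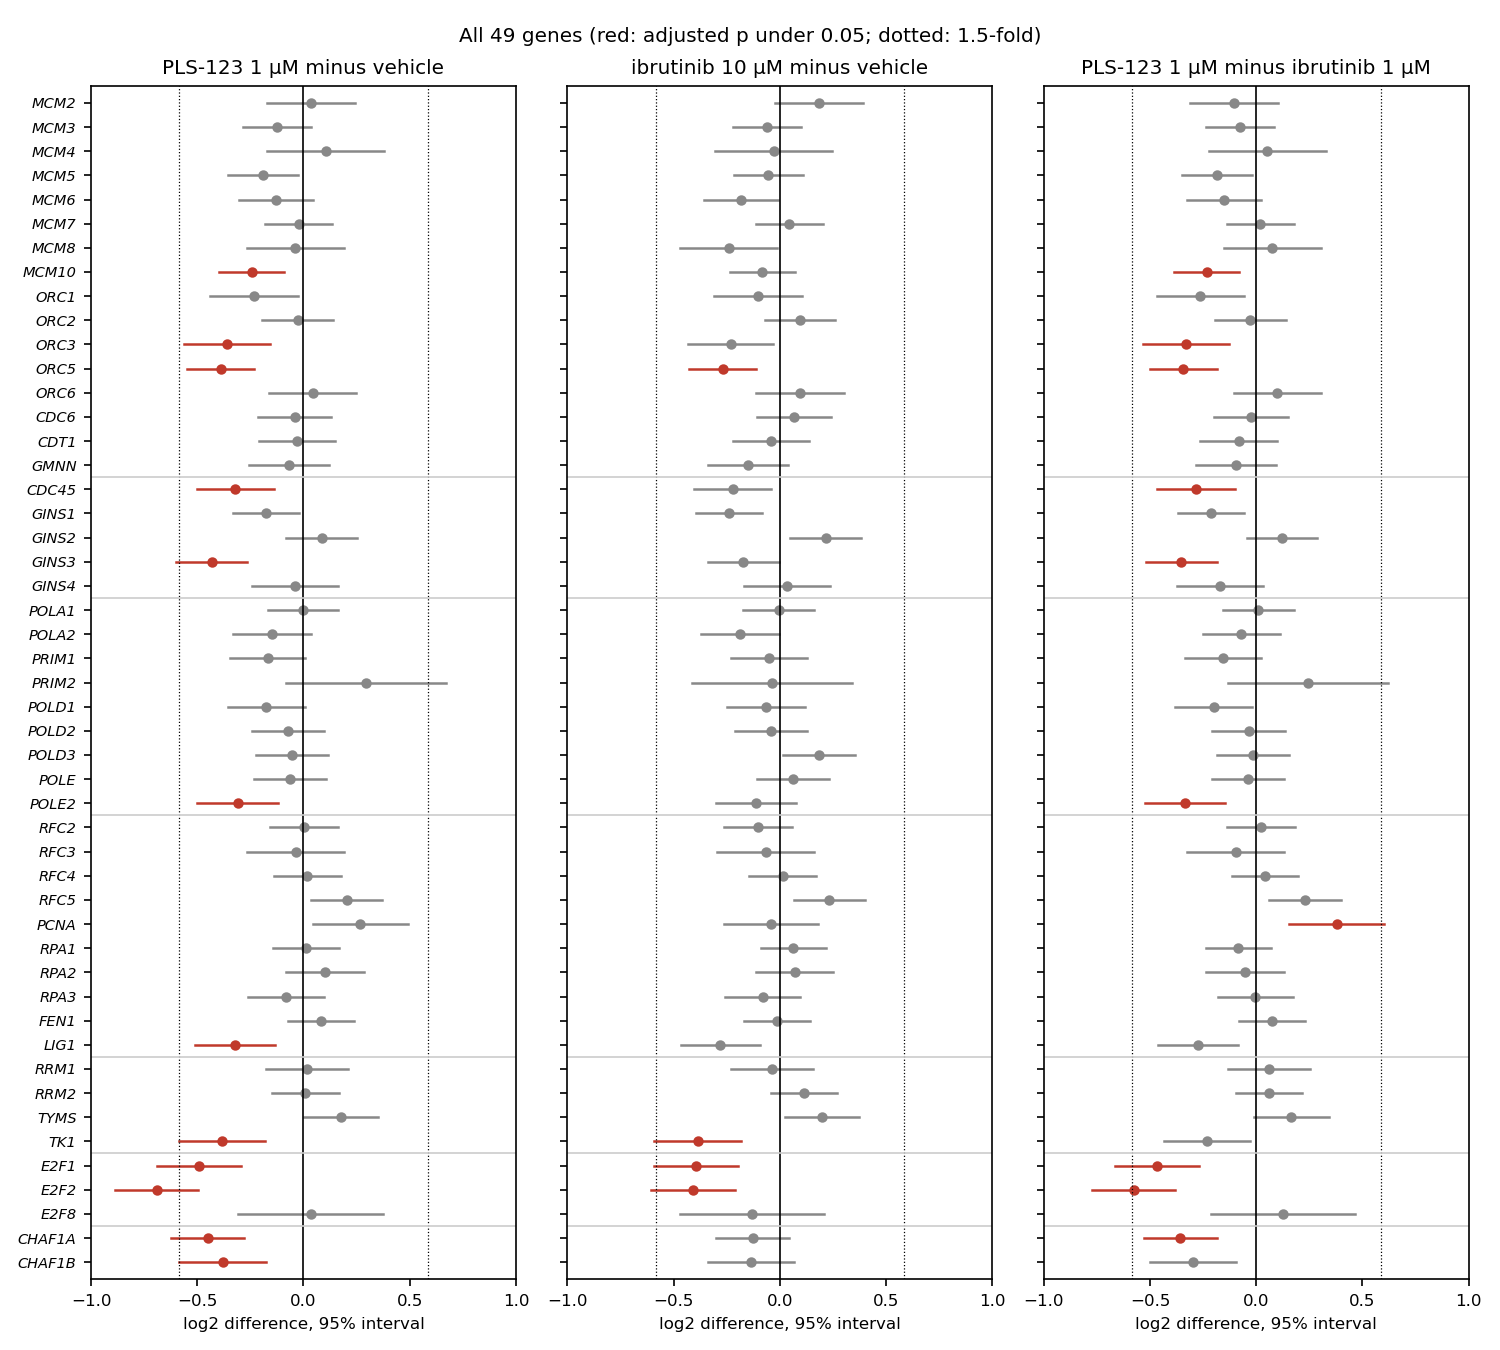
Log2 differences of the 49 genes (points) with 95% confidence intervals (lines) for PLS-123 minus vehicle, 10 μM ibrutinib minus vehicle and PLS-123 minus 1 μM ibrutinib, in role order from the MCM genes at the top to chromatin assembly at the bottom, separated by grey lines. Red marks an adjusted p under 0.05: 12 genes lower in the left panel, 4 lower in the middle panel, and 9 lower and 1 higher (PCNA) in the right panel.

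**Figure D2:**
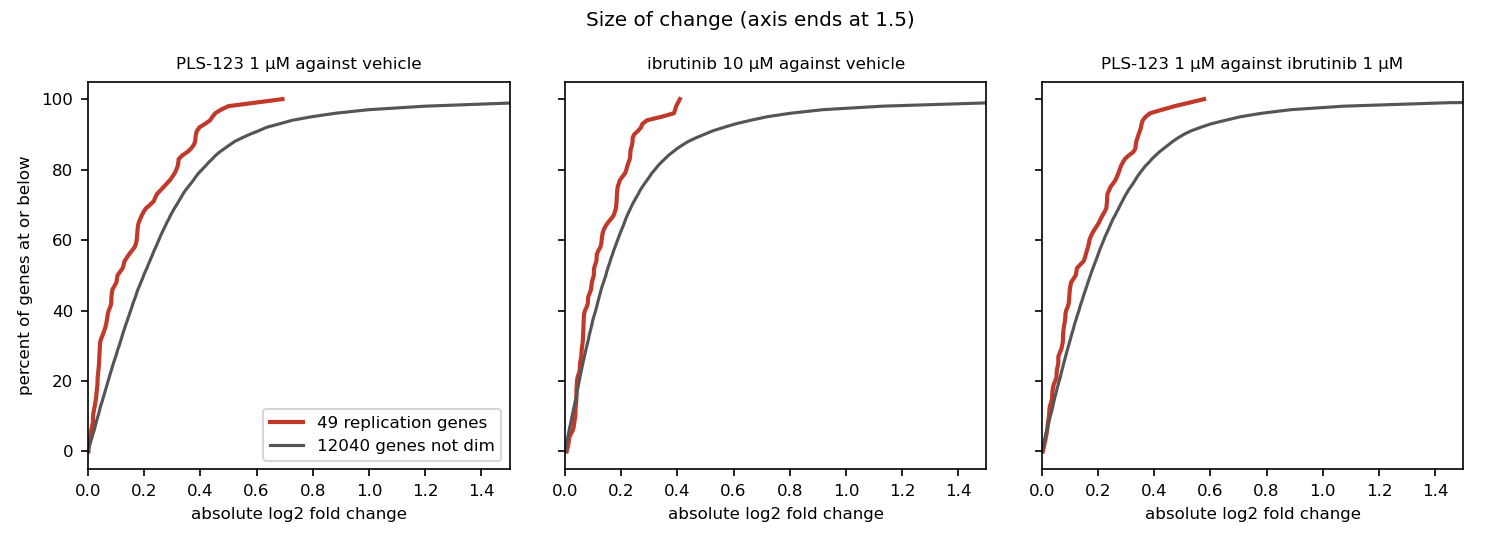
Share of genes (percent, vertical axis) at or below an absolute log2 fold change (horizontal axis, drawn to 1.5) for the 49 replication genes (red) and the 12040 genes that were not dim (grey). For PLS-123 against vehicle the red curve reaches 50% at 0.11 and the grey curve at 0.20.

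The E2F genes held the largest change of the set. E2F2, an activating member of the family, had log2 intensities of 9.47, 9.37 and 9.37 with PLS-123, 9.64, 9.72 and 9.70 at 10 μM ibrutinib, 9.79, 10.13 and 10.02 at 1 μM ibrutinib, and 10.09, 10.14 and 10.05 with vehicle. The PLS-123 arrays lay below those of every other group, the 10 μM ibrutinib arrays came next, and the arrays of 1 μM ibrutinib overlapped with vehicle. Its log2 fold change was -0.69 with PLS-123 (95% confidence interval -0.89 to -0.50, adjusted p = 0.000131) and -0.41 at 10 μM ibrutinib (-0.61 to -0.21, adjusted p = 0.00972). E2F1, the activator that also takes part in the DNA damage response, had 7.47, 7.41 and 7.41 with PLS-123, 7.63, 7.43 and 7.52 at 10 μM ibrutinib, 7.71, 8.03 and 7.95 at 1 μM ibrutinib, and 7.95, 7.90 and 7.91 with vehicle. The arrays of PLS-123 and of 10 μM ibrutinib overlapped with each other and lay below all vehicle arrays. E2F1 fell to 0.711-fold of vehicle with PLS-123 (log2 fold change -0.49, adjusted p = 0.00209) and to 0.76-fold with 10 μM ibrutinib (-0.40, adjusted p = 0.0126). E2F8, a repressor of E2F targets, had a log2 fold change of 0.03 with PLS-123 (-0.31 to 0.37), with arrays at 8.25, 7.71 and 8.20 against 7.92, 7.98 and 8.16 with vehicle.

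The promoters of these genes are shown because E2F factors bind them in the textbook account. The 250 bases before the start of 42 members were found in the RefSeq promoter table (build GRCh38.p14), leaving out MCM4, MCM5, GINS4, POLD3, RPA2, RPA3 and E2F8. They were searched on both strands for TTTCGCGC, TTTGGCGC, TTTCCCGC and TTTGCCGC, and matches that overlap one another were each counted. A match was present in 16 of 42 members (38.1%), against 928 of 27305 genes in the table (3.4%). A match was found in 4 of the 12 members lower with PLS-123 (33.3%) and in 12 of the 30 that were not called (40%). The stretches around the matches, with the matches in capitals, are printed 5′ to 3′ on the strand of the gene. For E2F2 (chr1:23531243-23531300, minus strand), E2F1 (chr20:33686386-33686443, minus strand) and ORC3 (chr6:87590098-87590134, plus strand), they are the 3 members with the largest log2 fold change among those with a match. MCM6 (chr2:135876497-135876620, minus strand), chosen after its values were seen, held the most matches, 4, of any member.
E2F2: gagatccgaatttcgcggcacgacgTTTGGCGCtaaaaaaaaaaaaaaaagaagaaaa
E2F1: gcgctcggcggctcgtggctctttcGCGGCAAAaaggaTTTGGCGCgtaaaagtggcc
ORC3: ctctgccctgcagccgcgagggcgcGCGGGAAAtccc
MCM6: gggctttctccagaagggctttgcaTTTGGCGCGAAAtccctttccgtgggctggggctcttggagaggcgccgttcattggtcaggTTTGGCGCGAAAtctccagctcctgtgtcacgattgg
The log2 fold change of MCM6 with PLS-123 was -0.13 (95% confidence interval -0.31 to 0.04, adjusted p = 0.321). A match is a description of these letters and shows no binding.

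Of the 16 licensing and origin genes, 3 were lower with PLS-123, near the background of 19.8% of the genes that were not dim. None was higher (background 11.2%). ORC5, a subunit of the origin recognition complex, had log2 intensities of 8.54, 8.53 and 8.44 with PLS-123, 8.59, 8.68 and 8.61 at 10 μM ibrutinib, 8.85, 8.82 and 8.87 at 1 μM ibrutinib, and 8.85, 8.95 and 8.89 with vehicle. All arrays of PLS-123 lay below all of 10 μM ibrutinib, and both groups lay below vehicle without overlap. The log2 fold change was -0.39 with PLS-123 (adjusted p = 0.00225) and -0.27 at 10 μM ibrutinib (adjusted p = 0.0321). ORC3, whose protein joins ORC5 in the same complex, had 8.39, 8.41 and 8.39 with PLS-123, 8.45, 8.54 and 8.59 at 10 μM ibrutinib, 8.60, 8.84 and 8.75 at 1 μM ibrutinib, and 8.58, 8.88 and 8.81 with vehicle. Vehicle array A fell just below the highest array of 10 μM ibrutinib, so of these groups only the PLS-123 arrays stood clear of vehicle. ORC3 had a log2 fold change of -0.36 with PLS-123 (adjusted p = 0.0169), and -0.23 at 10 μM ibrutinib, which did not pass (adjusted p = 0.161). The call for ORC3 was lost without vehicle array B, vehicle array C or PLS-123 array C, with an adjusted p of up to 0.0805.

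MCM10, which helps to turn the loaded helicase into a moving one, was the third licensing gene called, with a log2 fold change of -0.24 with PLS-123 (adjusted p = 0.0305). Its direction depended on the probe set. Another probe set of MCM10 was higher with PLS-123 by 0.31 on the log2 scale (adjusted p = 0.0442), and one more stood at -0.01. The call was lost without any 1 of the 3 vehicle arrays, PLS-123 array B or PLS-123 array C (adjusted p up to 0.114). The other 13 licensing genes had log2 fold changes between -0.23 (ORC1) and 0.11 (MCM4) with PLS-123, and their smallest adjusted p was 0.114. Among them, MCM2 had 0.03, MCM3 -0.12, MCM5 -0.19, MCM7 -0.02, CDT1, the MCM loading factor, -0.03, and its inhibitor GMNN -0.07.

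Of the 5 genes of the CDC45 and GINS group, which complete the helicase at the start of S phase, 2 were lower with PLS-123. Among the genes that were not dim, 19.8% were lower. GINS3 had log2 intensities of 8.49, 8.30 and 8.39 with PLS-123, 8.65, 8.67 and 8.64 at 10 μM ibrutinib, 8.68, 8.82 and 8.74 at 1 μM ibrutinib, and 8.79, 8.85 and 8.83 with vehicle. The PLS-123 arrays were below the arrays of all other groups. GINS3 fell to 0.741-fold of vehicle (log2 fold change -0.43, 95% confidence interval -0.60 to -0.27, adjusted p = 0.00154), against 0.888-fold with 10 μM ibrutinib (-0.17, adjusted p = 0.217). CDC45 had 8.56, 8.64 and 8.56 with PLS-123, 8.65, 8.64 and 8.76 at 10 μM ibrutinib, 8.72, 8.96 and 8.93 at 1 μM ibrutinib, and 8.95, 8.87 and 8.90 with vehicle. The arrays of PLS-123 and of 10 μM ibrutinib lay below vehicle, and 1 μM ibrutinib array A was low in its group. Its log2 fold change was -0.32 with PLS-123 (adjusted p = 0.0189) and -0.22 at 10 μM ibrutinib (adjusted p = 0.134). Without vehicle array A or PLS-123 array A or C the first of these did not pass (adjusted p up to 0.0672). The remaining subunits of GINS stood at -0.18 (GINS1), 0.09 (GINS2) and -0.04 (GINS4) with PLS-123, with adjusted p values of at least 0.122.

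Of the 9 polymerase and primase genes, only POLE2 passed the test with PLS-123, as lower (background 19.8% of the genes that were not dim). POLE2, the second subunit of the leading-strand polymerase epsilon, had log2 intensities of 8.11, 8.06 and 8.03 with PLS-123, 8.24, 8.36 and 8.20 at 10 μM ibrutinib, 8.46, 8.44 and 8.30 at 1 μM ibrutinib, and 8.32, 8.52 and 8.30 with vehicle. The PLS-123 arrays were the lowest of the 4 groups, and the other groups overlapped. The log2 fold change was -0.31 (adjusted p = 0.0266), and it did not pass without PLS-123 array B, PLS-123 array C or vehicle array B (adjusted p up to 0.124). PRIM2, the large primase subunit and the weakest signal of the set, had 5.29, 5.01 and 5.28 with PLS-123, 4.95, 4.92 and 4.71 at 10 μM ibrutinib, 5.47, 4.60 and 4.77 at 1 μM ibrutinib, and 4.89, 5.0 and 4.81 with vehicle. The arrays of 1 μM ibrutinib spanned the range of all the others. PRIM2 had a log2 fold change of 0.29 with PLS-123 (95% confidence interval -0.08 to 0.67, adjusted p = 0.299), so a change of 1.5-fold was within its error. The catalytic subunit of polymerase alpha, POLA1, had a log2 fold change of 0.00 (-0.17 to 0.16), that of delta, POLD1, -0.17 (-0.36 to 0.01), and that of epsilon, POLE, -0.06 (-0.23 to 0.11).

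Of the 10 genes of the clamp and its partners, LIG1 alone passed the test with PLS-123, in the lower direction. The background there was 19.8% of the genes that were not dim, and 7 of the 10 log2 fold changes were above 0. LIG1, the ligase that seals Okazaki fragments, had log2 intensities of 8.84, 8.81 and 8.74 with PLS-123, 8.80, 8.84 and 8.89 at 10 μM ibrutinib, 8.91, 9.17 and 9.14 at 1 μM ibrutinib, and 9.09, 9.21 and 9.08 with vehicle. The PLS-123 arrays overlapped with those of 10 μM ibrutinib, and both groups lay below vehicle. The log2 fold change was -0.32 with PLS-123 (adjusted p = 0.0202) and -0.28 at 10 μM ibrutinib, where it missed the threshold (adjusted p = 0.0595). The PLS-123 call was lost without vehicle array B or PLS-123 array C (adjusted p up to 0.0864). PCNA, the sliding clamp, had 12.31, 12.25 and 12.37 with PLS-123, 12.05, 11.98 and 11.98 at 10 μM ibrutinib, 12.13, 11.68 and 11.99 at 1 μM ibrutinib, and 12.04, 11.98 and 12.10 with vehicle. Its 3 PLS-123 arrays were above every other array, while 1 μM ibrutinib array B was the lowest. The log2 fold change of PCNA against vehicle was 0.27 (95% confidence interval 0.05 to 0.49) and did not pass (adjusted p = 0.0979). RFC5, a subunit of the clamp loader, had 0.20 with PLS-123 (adjusted p = 0.0984) and 0.23 at 10 μM ibrutinib (adjusted p = 0.0834), while RFC4 stood at 0.02, FEN1, the flap nuclease, at 0.08, and RPA1, which coats single-stranded DNA, at 0.01 with PLS-123.

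Among the 4 nucleotide synthesis genes, the salvage enzyme alone was called (background lower with PLS-123 19.8% of the genes that were not dim). TK1, the thymidine kinase of S phase, had log2 intensities of 8.27, 8.28 and 8.41 with PLS-123, 8.27, 8.37 and 8.31 at 10 μM ibrutinib, 8.34, 8.67 and 8.64 at 1 μM ibrutinib, and 8.69, 8.71 and 8.70 with vehicle. The arrays of PLS-123 and 10 μM ibrutinib overlapped, and 1 μM ibrutinib array A stood with them. All arrays of PLS-123 and of both ibrutinib doses lay below all vehicle arrays. The highest of 1 μM ibrutinib, 8.67, came close to the lowest of vehicle, 8.69. TK1 fell to 0.767-fold of vehicle with PLS-123 (log2 fold change -0.38, adjusted p = 0.0125) and to 0.764-fold with 10 μM ibrutinib (-0.39, adjusted p = 0.0167). TYMS, the enzyme that makes thymidylate anew, had 12.36, 12.34 and 12.26 with PLS-123, 12.31, 12.35 and 12.36 at 10 μM ibrutinib, 12.25, 12.06 and 12.16 at 1 μM ibrutinib, and 12.06, 12.23 and 12.15 with vehicle. The arrays of PLS-123 and of 10 μM ibrutinib lay above vehicle, by 0.18 (adjusted p = 0.162) and 0.20 (adjusted p = 0.171) on the log2 scale, and neither difference passed the test. The subunits of ribonucleotide reductase, which makes deoxynucleotides, had log2 fold changes of 0.02 (RRM1, 95% confidence interval -0.18 to 0.21) and 0.01 (RRM2, -0.15 to 0.17) with PLS-123.

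Both chromatin assembly genes, subunits of the CAF-1 complex that places histones on new DNA, were lower with PLS-123. Among the genes that were not dim, 19.8% were lower. CHAF1A had log2 intensities of 9.48, 9.38 and 9.37 with PLS-123, 9.72, 9.80 and 9.68 at 10 μM ibrutinib, 9.71, 9.88 and 9.71 at 1 μM ibrutinib, and 9.88, 9.89 and 9.81 with vehicle. Only the PLS-123 arrays stood apart, below all others. The log2 fold change was -0.45 with PLS-123 (95% confidence interval -0.62 to -0.28, adjusted p = 0.00145) and -0.13 at 10 μM ibrutinib (-0.30 to 0.04, adjusted p = 0.401). CHAF1B had -0.38 with PLS-123 (adjusted p = 0.0131) and -0.14 at 10 μM ibrutinib (adjusted p = 0.468). The PLS-123 call for CHAF1B was lost without vehicle array B or PLS-123 array C (adjusted p up to 0.0601).

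**Figure D3:**
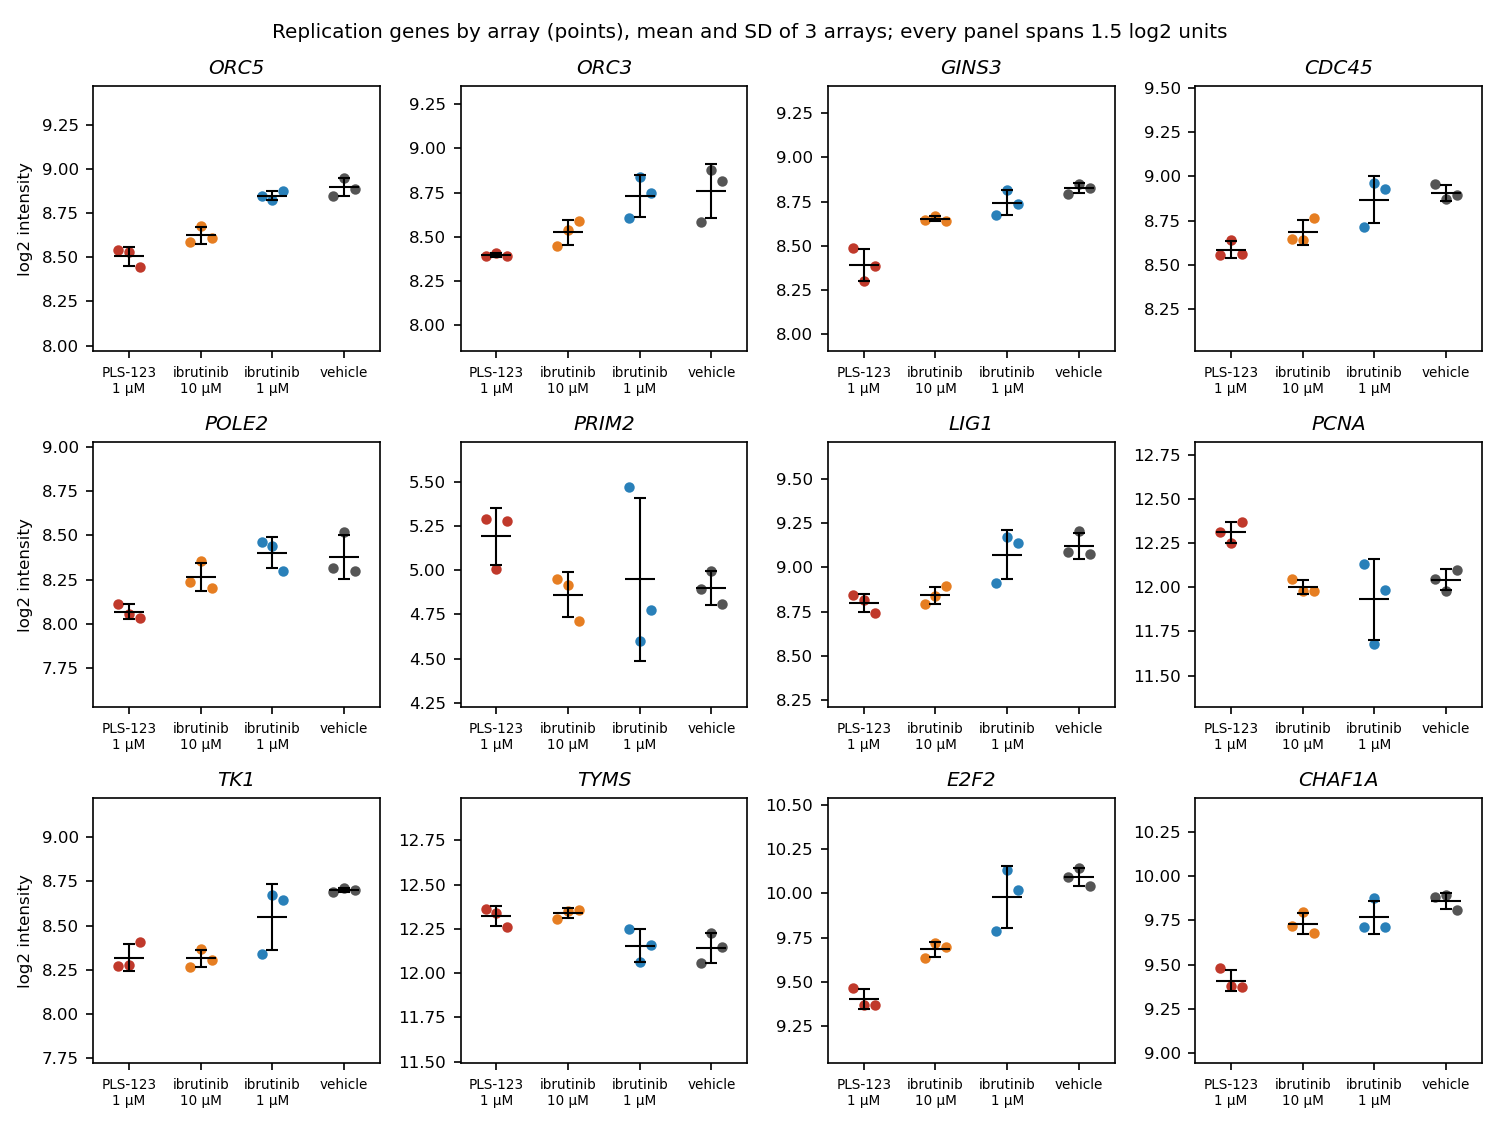
Log2 intensity (vertical axis) of 12 replication genes in each array (points), by group from left to right PLS-123 1 μM, ibrutinib 10 μM, ibrutinib 1 μM and vehicle, with the mean and SD of 3 arrays in black. Each panel spans 1.5 log2 units. E2F2, GINS3, POLE2 and CHAF1A are lowest with PLS-123, PCNA is highest with it, and TK1 is at about the same level with PLS-123 and 10 μM ibrutinib.

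With 10 μM ibrutinib fewer replication genes passed the test than with PLS-123. E2F1, E2F2, TK1 and ORC5 were lower than vehicle, 4 of 49 members by limma at an adjusted p under 0.05. The background in that direction was 4.62% of all probe sets and 9.03% of the genes that were not dim, close to the members' share of 8.16%. No member was higher (background 5.39%, and 10.4% of the genes that were not dim). The methods' t-test called 1 higher, limma on the 2 groups alone 0 and limma with an intensity trend 3. At an unadjusted p under 0.05, limma gave 12 members lower and 4 higher, and no background was computed at that threshold. Among the members that missed the threshold were LIG1, given above, GINS1 at -0.24 (adjusted p = 0.0516) and MCM8, a helicase of homologous recombination, at -0.24 (adjusted p = 0.204). For 46 of 49 members the 95% confidence interval lay within 1.5-fold, and none changed by that much. E2F2 kept its call with each array left out. The call of E2F1 was lost without 10 μM ibrutinib array B (adjusted p = 0.0654). That of TK1 was lost without vehicle array B or C or 10 μM ibrutinib array A or C (adjusted p up to 0.0612). That of ORC5 was lost without any 1 array of either group (adjusted p up to 0.12). Without 1 μM ibrutinib array A, 6 members were lower.

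With 1 μM ibrutinib no replication gene passed the test against vehicle. Limma called 0 of 49 members in either direction (background 0% of all probe sets), 0 members had an unadjusted p under 0.05, and the methods' t-test and the other limma models called 0 as well. The log2 fold changes ran from -0.15 (TK1) to 0.15 (RPA2), and every 95% confidence interval lay within 1.5-fold. The smallest adjusted p was 0.92. In this group, array A was the lowest of the 3 in E2F1, E2F2, TK1, LIG1, CDC45, ORC3, GINS3 and CHAF1B. It was the highest of the 3 in MCM4, MCM6, RFC3, PRIM2, PCNA, TYMS, RRM1 and E2F8, among others. Genes in both directions were noticed after their values were seen. The same array had an ACTB difference of 2.87, against 2.55 and 2.58 in arrays B and C, and the part of RNA quality in these values was not tested.

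At the matched dose of 1 μM, 10 of the 49 genes passed the test between the compounds. Compared with ibrutinib, PLS-123 gave lower values of E2F1, E2F2, ORC3, ORC5, MCM10, CDC45, GINS3, POLE2 and CHAF1A, and a higher value of PCNA. That is 9 members lower (18.4%, background 7.93% of all probe sets and 16.1% of the genes that were not dim). In the other direction 1 was higher (2.04%, background 4.58% and 8.54% over the same sets). The share lower was close to that of the genes that were not dim, and the share higher was below both backgrounds. The probe sets of MCM10 went opposite ways here too, another one being higher by 0.34 (adjusted p = 0.0401). The difference on the log2 scale was -0.58 for E2F2 (95% confidence interval -0.77 to -0.38, adjusted p = 0.000752), -0.47 for E2F1 (-0.67 to -0.27, adjusted p = 0.00378), -0.36 for CHAF1A (-0.53 to -0.18, adjusted p = 0.009) and -0.35 for GINS3 (-0.52 to -0.19, adjusted p = 0.00804). For PCNA it was 0.38 (0.16 to 0.60, adjusted p = 0.0273), and this call was lost without 1 μM ibrutinib array B or C or PLS-123 array A or C (adjusted p up to 0.11). TK1 (-0.23, -0.43 to -0.03), LIG1 (-0.27, -0.46 to -0.09) and CHAF1B (-0.30, -0.50 to -0.09) did not pass, with adjusted p values of 0.141, 0.056 and 0.0562 in that order. The 9 lower calls became 5 without 1 μM ibrutinib array B or without PLS-123 array B or C, 6 without 1 μM ibrutinib array C and 11 without array A. E2F1, E2F2, ORC5, GINS3 and CHAF1A kept the call with each array left out. With the ACTB difference as a covariate E2F2 alone kept it (adjusted p = 0.025), and the others had log2 differences of -0.36 (E2F1), -0.30 (ORC5), -0.31 (GINS3) and -0.29 (CHAF1A) with adjusted p values of 0.0875 to 0.132. MCM10 lost the call with any array left out (adjusted p up to 0.162). The calls of ORC3 (adjusted p up to 0.132), POLE2 (up to 0.079) and CDC45 (up to 0.162) were lost without 1 μM ibrutinib array B and without PLS-123 array B or C, among other arrays. For 45 members the interval of the difference lay within 1.5-fold. By the methods' t-test, with its p-values adjusted in the same way, only 1 member differed.

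Against 10 μM ibrutinib, a dose unlike that of PLS-123, no member passed limma's test, and the methods' t-test also called 0. At an adjusted p under 0.05 the background was 0.132% lower and 0.0513% higher over all probe sets. It was 0.233% and 0.0997% over the genes that were not dim. Limma with an intensity trend called 3 members lower and 1 higher. At an unadjusted p under 0.05, limma gave 7 members lower and 1 higher, and no background was computed at that threshold. The smallest adjusted p was that of CHAF1A (0.107), with log2 fold changes against vehicle of -0.45 with PLS-123 and -0.13 at 10 μM ibrutinib.

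Genes with several probe sets gave readings that were not always alike. The 49 members have 92 probe sets of a single symbol, and 27 genes have more than 1. Of the 43 that are not the brightest, 4 were dim, and PLS-123 lowered 14 and raised 4 against vehicle. Over all probe sets the background was 10.4% lower and 6.36% higher, and over the genes that were not dim 19.8% and 11.2%. E2F1, E2F2, ORC5, TK1 and CHAF1A were lower by more than 1 probe set each. The other probe set of GINS3 had -0.15 against vehicle (adjusted p = 0.213) and -0.17 against 1 μM ibrutinib (adjusted p = 0.191), and passed in neither. A second probe set was lower where the brightest was not for RRM1 (-0.40, adjusted p = 0.00286, against 0.02), CDC6 (-0.39, adjusted p = 0.00227, against -0.04), RFC3 (-0.42, adjusted p = 0.00249, against -0.04) and RFC2 (-0.34, adjusted p = 0.00961, against 0.00). The same held for MCM4, MCM5, POLA2 and FEN1. In the other direction, a second probe set of RRM2 was higher with PLS-123 (0.40, adjusted p = 0.00432, against 0.01), as was one of ORC2 (0.40, adjusted p = 0.00834, against -0.03) and one of RFC5 (0.54, adjusted p = 0.0256, against 0.20). The cause of these differences between probe sets was not tested.

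**Figure D4:**
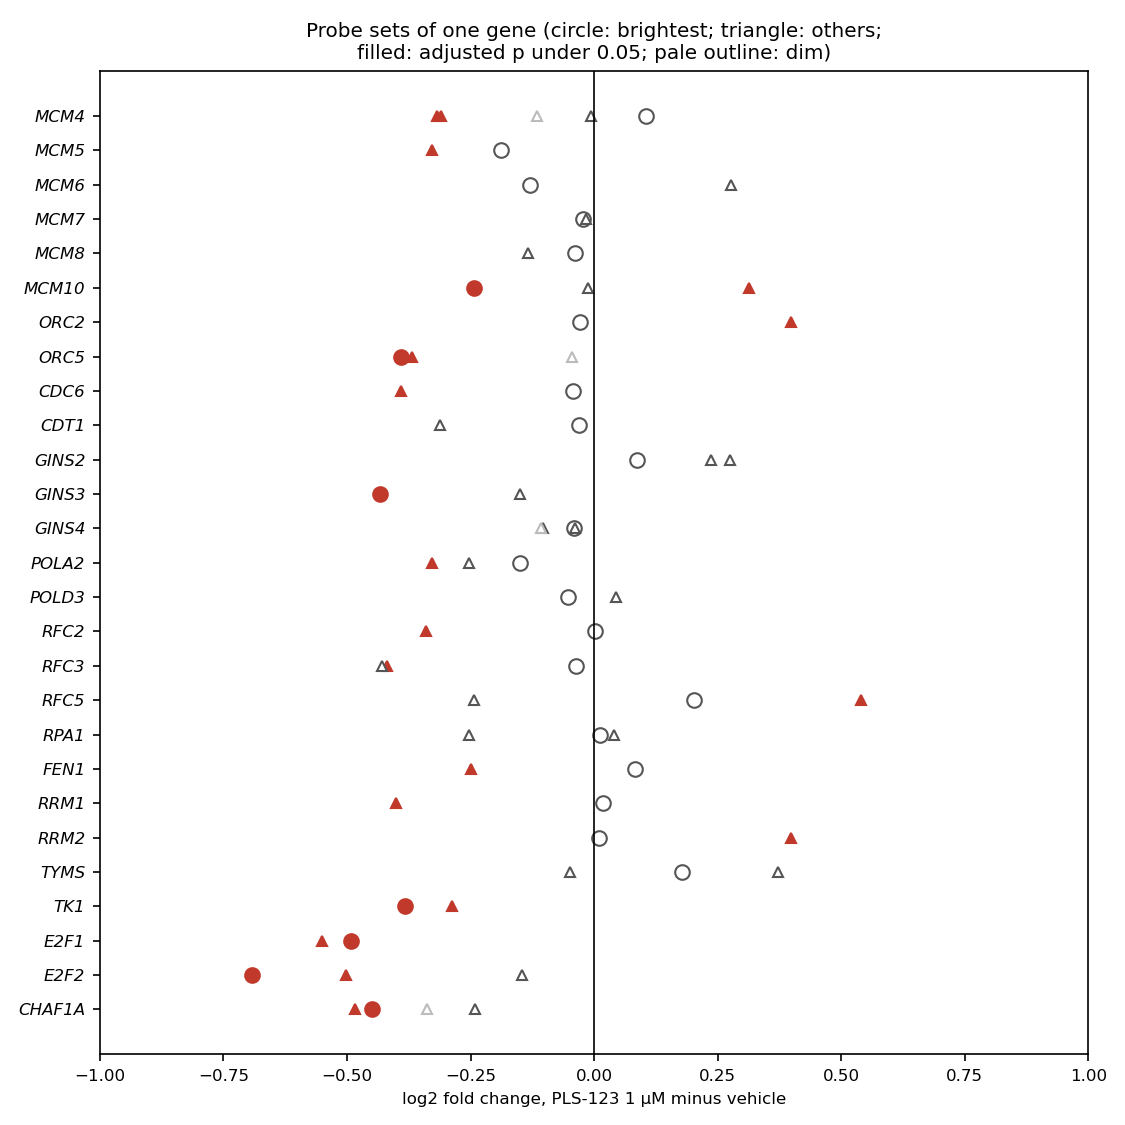
Log2 fold change of PLS-123 against vehicle (horizontal axis) for every probe set of the 27 genes with more than 1, a circle for the brightest and triangles for the others, filled in red at an adjusted p under 0.05 and with a pale outline if dim. The probe sets of E2F1 and TK1 lie close together, whereas MCM10 has called values on both sides of 0.

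Other genes of the same processes were grouped in 4 lists. Of 26 other licensing and fork genes, 8 were lower with PLS-123 (background 10.4% of all probe sets and 19.8% of the genes that were not dim) and 2 were higher (6.36% and 11.2%, a share near that of this list). POLD4, the smallest subunit of polymerase delta, had log2 intensities of 7.65, 7.56 and 7.32 with PLS-123, against 8.34, 8.43 and 8.27 with vehicle (log2 fold change -0.83, adjusted p = 0.000247). Next to it, ATAD5, which takes PCNA off DNA, had -0.57 (adjusted p = 0.000331) and DSCC1, part of an alternative clamp loader, -0.59 (adjusted p = 0.000385). In the opposite direction stood TIMELESS, a protein that protects stalled forks, at 0.41 (adjusted p = 0.00256). With 10 μM ibrutinib 6 of these 26 genes were lower (background 4.62% of all probe sets and 9.03% of the genes that were not dim). In the higher direction 1 passed (background 5.39% and 10.4%). The POLD4 arrays of 10 μM ibrutinib, at 7.59, 7.60 and 7.64, fell within the range of PLS-123.

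In the E2F and RB list, 4 of 16 genes were lower and 2 higher with PLS-123, close to the shares of 19.8% and 11.2% among the genes that were not dim. E2F7, which with E2F8 represses E2F targets, had log2 intensities of 8.64, 8.63 and 8.61 with PLS-123, 8.70, 8.60 and 8.72 at 10 μM ibrutinib, 7.98, 7.89 and 7.94 at 1 μM ibrutinib, and 7.81, 7.83 and 7.86 with vehicle. It was high in all arrays of PLS-123 and 10 μM ibrutinib, without overlap with the others (log2 fold change with PLS-123 0.79, 95% confidence interval 0.63 to 0.95, adjusted p = 5.0e-06). CCNE1, the cyclin E1 that drives entry into S phase, had 7.48, 7.45 and 7.46 with PLS-123, 7.71, 7.69 and 7.80 at 10 μM ibrutinib, 8.01, 8.26 and 8.14 at 1 μM ibrutinib, and 8.15, 8.22 and 8.13 with vehicle. Its level was lowest with PLS-123 (-0.70, adjusted p = 4.5e-05). CDC25A, the phosphatase that activates CDK2, had -0.55 (adjusted p = 0.000398) and TFDP2, a partner of E2F proteins, -0.48 (adjusted p = 0.00109). With 10 μM ibrutinib 2 genes of this list were lower and 1 was higher (background 9.03% and 10.4% of the genes that were not dim).

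Of 25 other genes of nucleotide supply, 4 were lower with PLS-123 and none was higher. They were CTPS1, which makes CTP (-0.44, adjusted p = 0.00245), CAD, the first enzyme of pyrimidine synthesis (-0.42, adjusted p = 0.00435), and the purine enzymes ADSL (-0.32, adjusted p = 0.0122) and IMPDH2 (-0.30, adjusted p = 0.0229). The share, 4 of 25, lay between the backgrounds of 10.4% of all probe sets and 19.8% of the genes that were not dim. None of the 25 passed with 10 μM ibrutinib (background 9.03% lower and 10.4% higher of the genes that were not dim). Among 14 other genes of replication-coupled chromatin, 3 were higher with PLS-123, namely the histone-binding protein RBBP7 (0.40, adjusted p = 0.00143), the remodeller HELLS (0.46, adjusted p = 0.00483) and UHRF1, which guides DNA methylation to new strands (0.32, adjusted p = 0.0187). The background in that direction was 6.36% of all probe sets and 11.2% of the genes that were not dim. SSRP1, a subunit of the histone chaperone FACT, was lower (-0.32, adjusted p = 0.0116). With 1 μM ibrutinib none of the 81 genes of the 4 lists passed limma's test.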

How the data were processed

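RNA of OCI-Ly7 cells was hybridized to Affymetrix U133 Plus 2.0 arrays, 12 in all. The intensity values used were normalized with RMA (version not stated) and deposited by the authors on the linear scale, and log2 was taken without an added constant. Of 54675 probe sets, 62 controls were left out, and 41091 had a single symbol in the array annotation. Limma 3.58.1 (R 4.3.3) used all 12 arrays, a mean for each group, 8 residual degrees of freedom and eBayes, and was tested on simulated data. P-values were two-sided and adjusted over 54613 probe sets by comparison. This holds for the methods' t-test as well, for which the methods name no adjustment. The members and lists were chosen with earlier results of these data known. Values by array are given for the 2 members of each role with the largest log2 fold change with PLS-123 (1 in roles under 4 genes). From each list of other genes, up to 4 called genes with the smallest adjusted p are named. E2F1 and E2F8 by array, and values given as examples of uncalled members, were chosen after their values were seen. Of 83 listed genes, 81 were measured. Alternatives were other tests, scalings, filters, probe set rules and leaving out each array.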

Additional observations from a re-analysis of the deposited data

Results flagged for a closer look

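Control probe sets, which belong to none of the measured genes, differed from the vehicle arrays. The log2 intensity of ACTB at its 3′ end minus that at its 5′ end was higher than in vehicle by 0.29 in the PLS-123 arrays and by 0.10 in those of 10 μM ibrutinib. The same measure of GAPDH exceeded vehicle by 0.14 under PLS-123 and by 0.0775 under 10 μM ibrutinib. With the ACTB measure as a covariate, 2 members were lower with PLS-123 and 4 with 10 μM ibrutinib. The ACTB values of both these groups lay above all vehicle arrays, so that fit cannot cleanly tell treatment from RNA quality. No group of 3 arrays was searched for single arrays that stand apart.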

How the results depend on the processing

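E2F2 passed as lower with PLS-123 than with vehicle under every alternative run, GINS3 under all but the threshold on fold change, and ORC5, E2F1, TK1 and CHAF1A under all but that threshold and the ACTB covariate. Of the 12 lower members, 2 remained with that covariate and 1 at a fold change of at least 1.5. The number lower rose to 14 with an intensity trend and without dim probe sets, and to 16 by the median over probe sets. Leaving out 1 array gave 6 to 12 lower and 0 to 1 higher. Members higher with PLS-123 numbered 1 by the methods' t-test, after quantile normalization and by the median over probe sets, 2 without dim probe sets and 3 with an intensity trend. The 4 members lower with 10 μM ibrutinib became 7 by the methods' t-test, without dim probe sets and by the median over probe sets, 8 with an intensity trend and 0 at the fold threshold, or 2 to 6 with an array left out. Those higher became 1 by the t-test, after quantile normalization and with 1 probe set per gene, 2 without dim probe sets, and 3 with the trend and by the median (0 with any array left out).

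For PLS-123 against 1 μM ibrutinib (9 members lower, 1 higher), 1 and 0 were left by the t-test and with the ACTB covariate, 4 and 0 in a fit of the 2 groups alone, 5 and 2 after quantile normalization and with the mean of 100 normalization controls at the centre, and 0 and 0 at the fold threshold. Lower members became 14 without dim probe sets and 15 by the median, and higher members 3 with the trend and 2 without dim probe sets or with 1 probe set per gene. Leaving out an array gave 5 to 11 lower and 0 to 2 higher. Against 10 μM ibrutinib, the trend gave 3 lower and 1 higher, no dim probe sets 1 lower, and an array left out 0. With 1 μM ibrutinib against vehicle, every alternative gave 0 in both directions.

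By the median over the probe sets of a gene, the log2 fold change of MCM10 with PLS-123 was 0.15 against vehicle and 0.0403 against 1 μM ibrutinib, and that of RPA1 against vehicle was -0.25. With the sample letter as a replicate block, 12 members were lower with PLS-123, 3 with 10 μM ibrutinib and 0 with 1 μM ibrutinib. Against ibrutinib the blocked fit gave 7 lower and 1 higher at 1 μM and 0 at 10 μM. Residual correlations of the 18 pairs of arrays with the same letter in different groups ran from -0.25 to 0.22. Pairs with unlike letters were not compared, so whether the letters mark paired samples was not tested.

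Of all probe sets called with PLS-123 against vehicle, 62.0% were lower, 52.4% after quantile normalization, and 53.7% or 72.5% with the mean or median of the control probe sets at the centre of each array. The last was chosen after seeing the data and left 12 members lower. For PLS-123 against 1 μM ibrutinib the share lower was 63.4%, and 53.0%, 51.2% and 60.4% in the same order. The median of all probe sets moved by less than 0.1 under each scaling. The cause of these changes was not tested. The number of arrays, 3 per group, limits which of these small differences pass.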
